A study of Homo sapiens with 12 samples.

Results

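The genes of sterol and fatty acid synthesis were followed in K562 cells, an established line of chronic myeloid leukaemia that carries the BCR-ABL fusion kinase, during inhibition of that kinase with dasatinib. The list held 31 genes in 4 roles: the SREBP factors and the proteins that control them, the mevalonate steps, the later sterol steps, and fatty acid synthesis. Of these, 30 had a probe in the platform annotation (no probe there names FDFT1), and 28 passed the filter on dim signals, among 10208 genes tested. The 28 comprised 4 regulators, 7 genes of the mevalonate steps, 10 of the later sterol steps and 7 of fatty acid synthesis. STARD4 and FADS2 did not pass and were detected on 2 of 12 arrays each. SREBF2 passed only through the group treated with dasatinib for 8 h, and the other 27 were detected on all 3 arrays of every group.

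Total RNA was hybridised to Illumina BeadChips, which read gene expression as the fluorescence of probe-coated beads. Cells were grown in medium with 10% fetal bovine serum and then treated in medium with 0.1% serum, either with 0.2% DMSO, the vehicle, for 24 h, or with 100 nM dasatinib for 4, 8 or 24 h, with 3 arrays per group and 12 in all. Low serum was common to the 4 groups, and dasatinib at 4 h and 8 h was set against a vehicle group harvested at 24 h, so at those times the drug and the hours in low serum cannot be told apart. The labels do not tell separate cultures from repeat arrays of one culture, and p-values here therefore cover the array-to-array spread alone, which may be technical. The 3 comparisons with DMSO share the same DMSO arrays.

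Arrays had median signals between 133.9 and 160, with 17175 to 18927 of 47314 probes detected, and correlated at 0.9892 to 0.9925 within a group and at 0.9308 to 0.9851 between groups over log2 values. The 6 measured markers of K562 and erythroid cells (GATA1, TFRC, HBZ, HBG1, HBE1 and KLF1) were all detected. Their median normalized log2 signal was 11.7 in DMSO, 12.2 at 4 h, 12.6 at 8 h and 13.6 at 24 h, and its part in the results below was not tested. Markers of other cells were fewer, with 1 of 4 megakaryocyte genes (PPBP), 2 of 5 granulocyte and monocyte genes (CD14 and LYZ), 0 of the 4 lymphoid genes with a probe and 2 of 5 fibroblast and epithelial genes (COL1A2 and EPCAM) detected. The median log2 signal of COL1A2 and EPCAM was 10.9 in DMSO, 11.1 at 4 h, 10.9 at 8 h and 9.57 at 24 h, and its part in the results was not tested either. In RNA from a whole culture, fewer cells with a transcript and less of it per cell cannot be told apart.

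As background, the SREBP factors are made as membrane proteins of the endoplasmic reticulum, where SCAP escorts them and INSIG proteins hold the pair back while sterols are plentiful. When sterols run low, the pair moves to the Golgi, proteases release the active part, and it switches on genes of cholesterol and fatty acid synthesis together with INSIG1. The SREBP form encoded by SREBF2 is known mainly for cholesterol genes and forms encoded by SREBF1 for fatty acid genes. Both factors act with NF-Y and SP1, which bind the CCAAT and GC boxes near many of these promoters.

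Promoter sequence, which the member list did not use, was read from RefSeq windows of 250 bases before to 50 bases after each transcription start on GRCh38.p14. Of the 28 members, 25 had a window there and together had 33, since some genes have several starts, whose windows can overlap. They were searched on both strands for 4 motifs, of which none contains another, though neighbouring matches can share end letters. A classical sterol regulatory element, written TCACNCCAC, was in 1 of the 33 windows (3.03%), that of SREBF2, against 1.13% of all 35116 promoters and 1.05% of the 11773 windows of tested genes. An NF-Y box, CCAAT, was in 22 windows (66.7%) of 18 members, against 34.6% of all promoters and 35.8% of those of tested genes. For the SP1 box, GGGCGG, the counts were 30 windows (90.9%) of 24 members, against 45% of all promoters and 66.4% of those of tested genes. The E-box CACGTG was in 5 windows (15.2%), of SCAP, INSIG1, LSS and SC5D, against 7.26% and 9.9%. These matches are a description of letters and carry no test, and a window without a match says nothing about binding.

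The 5 windows printed here belong to the gene with the sterol element and to 4 members described below: INSIG1 and MSMO1, lower at each time, DHCR7, lower at 8 h and 24 h, and TM7SF2, the member that rose most. Each is written 5′ to 3′ along the transcribed strand, and capitals mark matches to TCACNCCAC or CCAAT or to their reverse complements. Relative to the transcription start, the SREBF2 window holds the sterol element at -133 and an NF-Y box at -106, that of INSIG1 an NF-Y box at -170, that of MSMO1 NF-Y boxes at -185, -139, -76 and -34, that of DHCR7 at -94 and -48, and that of TM7SF2 at -74. A second window of DHCR7, not printed, had no match to any of the 4 motifs.
SREBF2, chr22:41832855-41833154, plus strand: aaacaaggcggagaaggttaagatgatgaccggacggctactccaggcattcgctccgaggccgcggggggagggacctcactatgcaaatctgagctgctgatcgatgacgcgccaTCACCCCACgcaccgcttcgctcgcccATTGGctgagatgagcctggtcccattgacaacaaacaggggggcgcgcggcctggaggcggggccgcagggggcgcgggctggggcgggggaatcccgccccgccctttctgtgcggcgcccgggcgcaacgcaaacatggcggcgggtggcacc
INSIG1, chr7:155297628-155297927, plus strand: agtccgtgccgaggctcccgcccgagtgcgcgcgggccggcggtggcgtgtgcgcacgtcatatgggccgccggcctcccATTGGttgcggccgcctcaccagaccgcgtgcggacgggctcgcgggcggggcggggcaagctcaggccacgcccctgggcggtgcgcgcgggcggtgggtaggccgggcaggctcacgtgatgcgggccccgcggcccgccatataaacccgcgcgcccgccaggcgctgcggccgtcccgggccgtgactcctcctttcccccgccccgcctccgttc
MSMO1, chr4:165327419-165327718, plus strand: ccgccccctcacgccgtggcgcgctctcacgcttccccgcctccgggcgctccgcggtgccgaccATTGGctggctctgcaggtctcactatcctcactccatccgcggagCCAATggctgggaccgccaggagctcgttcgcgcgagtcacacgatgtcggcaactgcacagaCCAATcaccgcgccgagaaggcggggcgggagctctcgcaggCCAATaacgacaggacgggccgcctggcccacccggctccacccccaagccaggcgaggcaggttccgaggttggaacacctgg
DHCR7, chr11:71448344-71448643, minus strand: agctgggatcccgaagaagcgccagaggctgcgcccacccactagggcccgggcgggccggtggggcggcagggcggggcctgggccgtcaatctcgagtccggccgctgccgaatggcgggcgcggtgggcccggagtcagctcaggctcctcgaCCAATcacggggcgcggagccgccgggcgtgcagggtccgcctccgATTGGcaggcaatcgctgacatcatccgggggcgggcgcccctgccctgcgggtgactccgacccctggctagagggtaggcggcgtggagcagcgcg
TM7SF2, chr11:65111622-65111921, plus strand: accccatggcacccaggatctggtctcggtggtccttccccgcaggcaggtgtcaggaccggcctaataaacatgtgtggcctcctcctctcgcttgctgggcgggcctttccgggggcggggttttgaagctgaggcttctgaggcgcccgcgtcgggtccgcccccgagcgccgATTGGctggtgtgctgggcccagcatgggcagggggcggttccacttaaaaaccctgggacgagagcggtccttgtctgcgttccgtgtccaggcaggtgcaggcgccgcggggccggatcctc
The NF-Y box was thus present in windows of members that fell and of members that rose.

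After 24 h of dasatinib, 13 of these 28 genes had fallen against DMSO, FASN and DHCR7 by more than 2-fold, while TM7SF2 stood more than 2-fold higher. A gene was called when its p from limma, adjusted by Benjamini-Hochberg over all 10208 genes, was under 0.05. At 2-fold or more, 2 of the 28 members were called lower, as were 704 of all 10208 genes. Called higher at 2-fold or more were 1 member and 785 of all genes. The 13 called lower were 46.4% of the members, where 27.1% of all genes tested were, and 3 were called higher (10.7%), where 26.9% of all genes were. The log2 difference was negative for 23 of the 28, with a median of -0.32 beside 0.01 over all genes. At 8 h, 6 members were called lower (21.4%), against 15.4% of all genes, and 2 higher (7.14%), against 16.6%, and the median was -0.05 beside 0.02. By 4 h, 2 members were called lower (7.14%), against 6.65%, and 1 higher (3.57%), against 5.29%, shares near those of all genes, with medians of -0.08 and 0.01. The counts describe this list, chosen with earlier results of these data known, and were given no test of their own.

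**Figure D1:**
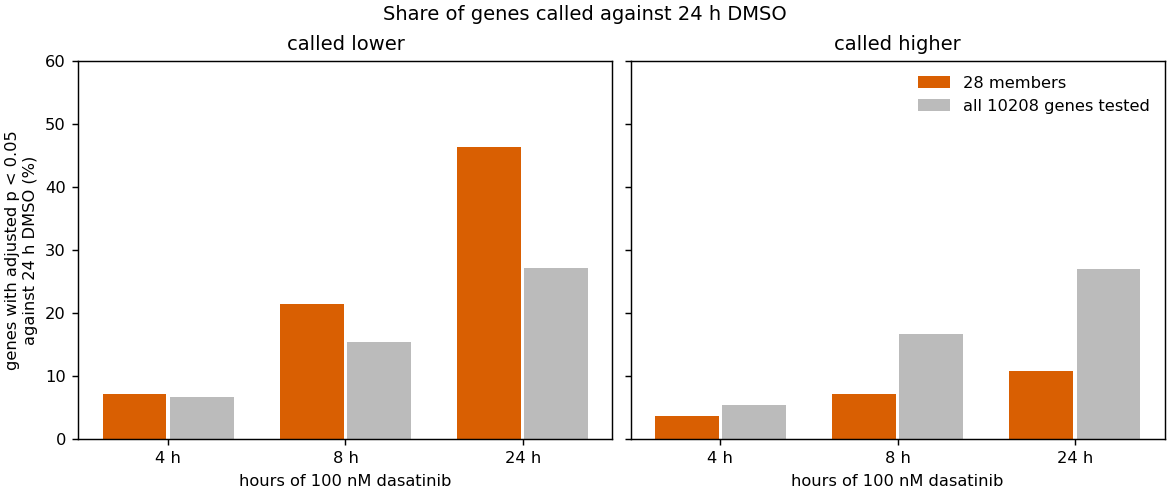
Share of genes called lower (left) and higher (right) against 24 h DMSO, in percent, after 4 h, 8 h and 24 h of 100 nM dasatinib, for the 28 members (orange) and all 10208 genes tested (grey). At 24 h, 46.4% of members and 27.1% of all genes were called lower, and 10.7% and 26.9% were called higher.

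**Figure D2:**
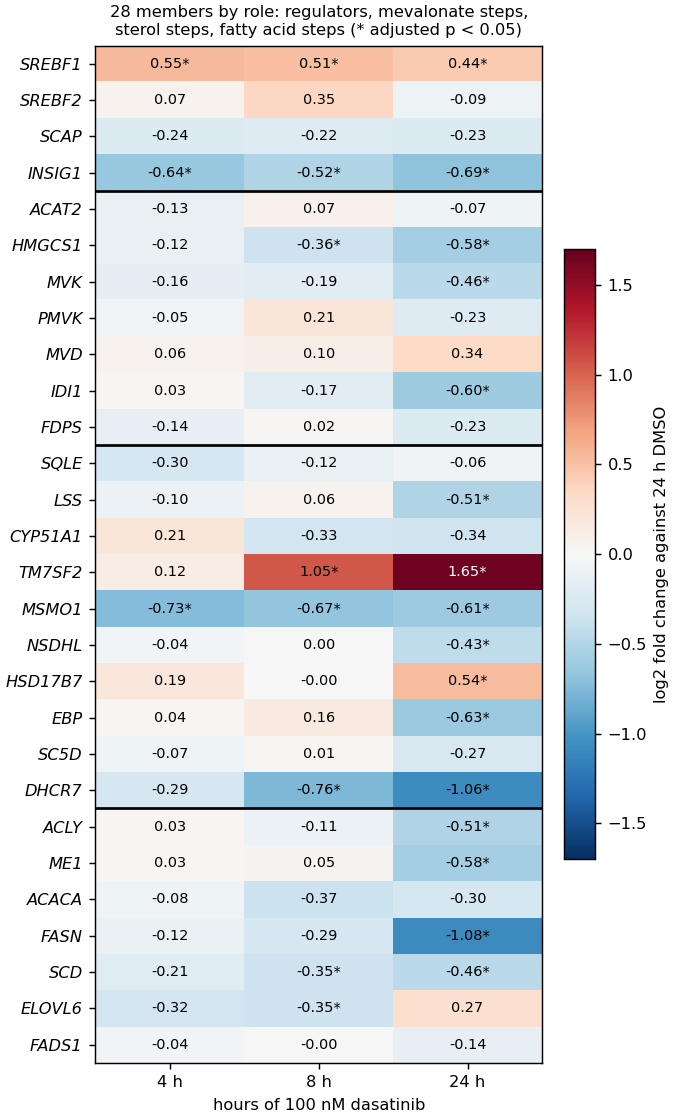
Log2 fold change of each of the 28 members (rows, grouped by role) after 4 h, 8 h and 24 h of 100 nM dasatinib (columns) against 24 h DMSO, with an asterisk where the adjusted p was under 0.05. Red is higher and blue lower, and TM7SF2 reaches 1.65 and FASN -1.08 at 24 h. INSIG1 and MSMO1 are blue with an asterisk in every column.

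Among the regulators, the transcript of INSIG1, the protein that holds SCAP in the endoplasmic reticulum, was lower from 4 h on, and that of SREBF1 was higher from 4 h on. INSIG1 had normalized log2 signals of 13.23, 12.91 and 12.99 in the DMSO arrays, 12.55, 12.41 and 12.25 at 4 h, 12.53, 12.52 and 12.53 at 8 h and 12.46, 12.21 and 12.39 at 24 h. All 9 dasatinib arrays lay below the 3 DMSO arrays. INSIG1 fell by 0.64 ± 0.12 (adjusted p = 0.00341) on the log2 scale at 4 h, by 0.52 (adjusted p = 0.00478) at 8 h and by 0.69 (adjusted p = 0.000285) at 24 h, and a further probe for it read -0.36, -0.46 and -0.90. SREBF1 had signals of 8.86, 9.23 and 8.92 in the DMSO arrays, 9.53, 9.61 and 9.50 at 4 h, 9.50, 9.62 and 9.41 at 8 h and 9.41, 9.62 and 9.30 at 24 h. Again the DMSO arrays and the 9 dasatinib arrays did not overlap, here with dasatinib higher. SREBF1 rose by 0.55 ± 0.12 (adjusted p = 0.0116) at 4 h, by 0.51 (adjusted p = 0.00734) at 8 h and by 0.44 (adjusted p = 0.00826) at 24 h. Its other probe gave 0.76, 0.58 and -0.00, and with the mean of both probes the 24 h difference was 0.22 (adjusted p = 0.198), so the rise at 24 h rests on the brighter probe.

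SREBF2 and SCAP were not called against DMSO with the processing used here, but both were under other choices. The dim SREBF2 probe, detected on 9 of 12 arrays, had signals of 5.57, 5.14 and 5.58 in the DMSO arrays, 5.58, 5.74 and 5.16 at 4 h, 5.95, 5.64 and 5.77 at 8 h and 5.40, 5.45 and 5.18 at 24 h. Its 8 h arrays were above the DMSO arrays, and the 4 h and 24 h arrays overlapped them, but SREBF2 passed the filter only through the 8 h group, so a higher value there follows in part from the choice. The differences for SREBF2 were 0.07 ± 0.17 (adjusted p = 0.876) at 4 h, 0.35 ± 0.17 (adjusted p = 0.126) at 8 h and -0.09 ± 0.17 (adjusted p = 0.689) at 24 h, where the 95% interval reached from -0.45 to 0.28. With 75th-percentile scaling the 8 h value was 0.58 (adjusted p = 0.0106). SCAP, the escort protein, had signals of 11.13, 10.83 and 11.06 in the DMSO arrays, 10.70, 10.80 and 10.82 at 4 h, 10.79, 10.78 and 10.78 at 8 h and 10.87, 10.74 and 10.73 at 24 h. DMSO arrays A and C were the highest of the 12, and DMSO array B lay below 1 of the 24 h arrays. SCAP differed by -0.24 ± 0.10 (adjusted p = 0.156) at 4 h, -0.22 ± 0.10 (adjusted p = 0.103) at 8 h and -0.23 ± 0.10 (adjusted p = 0.0639) at 24 h. Without DMSO array B it was called lower, with -0.31 (adjusted p = 0.0369) at 8 h and -0.32 (adjusted p = 0.0191) at 24 h. With all arrays, SCAP was called lower at 24 h without background correction (adjusted p = 0.0254) and with 75th-percentile scaling (adjusted p = 0.0253), at 8 h without background correction (adjusted p = 0.0453), and in the authors' deposited table at 4 h, 8 h and 24 h (adjusted p of 0.0473, 0.028 and 0.0151).

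In the mevalonate steps, from acetyl-CoA to the isoprenoid farnesyl diphosphate, 3 of 7 members fell at 24 h and 0 rose, with 1 higher at an unadjusted p under 0.05 in limma. The shares were 42.9% lower, against 27.1% of all genes, and 0% higher, against 26.9%. Those that fell were HMGCS1, the cytosolic HMG-CoA synthase, MVK, mevalonate kinase, and IDI1, which interconverts the isopentenyl diphosphate isomers. HMGCS1 had signals of 12.74, 12.92 and 12.83 in the DMSO arrays, 12.73, 12.85 and 12.55 at 4 h, 12.44, 12.55 and 12.43 at 8 h and 12.30, 12.18 and 12.28 at 24 h. The 8 h and 24 h arrays were all below DMSO, and those at 4 h overlapped it. HMGCS1 fell by 0.36 ± 0.10 (adjusted p = 0.0178) at 8 h and by 0.58 (adjusted p = 0.000386) at 24 h, after a difference of -0.12 ± 0.10 (adjusted p = 0.537) at 4 h. The 8 h call was narrow, with an adjusted p of 0.0648 without DMSO array B, 0.0539 without the 8 h array A, 0.0571 without the 8 h array C and 0.071 with 75th-percentile scaling. IDI1 had signals of 10.89, 10.51 and 10.79 in the DMSO arrays, 10.76, 10.80 and 10.73 at 4 h, 10.66, 10.54 and 10.47 at 8 h and 9.94, 10.12 and 10.33 at 24 h. Only the 24 h arrays were all below DMSO. IDI1 fell by 0.60 ± 0.12 (adjusted p = 0.00139) at 24 h, with 0.03 ± 0.12 (adjusted p = 0.913) at 4 h and -0.17 ± 0.12 (adjusted p = 0.319) at 8 h.

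MVK fell by 0.46 ± 0.14 (adjusted p = 0.0156) at 24 h, but this was lost without DMSO array C (adjusted p = 0.0718) or the 24 h array A (adjusted p = 0.0511), and with 75th-percentile scaling MVK gave -0.26 (adjusted p = 0.126). The other 4 members of these steps were not called against DMSO at any time with the processing used here. MVD, mevalonate diphosphate decarboxylase, gave the single positive value at 24 h, 0.34 ± 0.15 (adjusted p = 0.0675), and was called higher without DMSO array B (0.46, adjusted p = 0.0293) or the 24 h array A (0.46, adjusted p = 0.0304), without background correction (adjusted p = 0.0299) and with 75th-percentile scaling (adjusted p = 0.0386) or the authors' deposited table (adjusted p = 0.0481). PMVK, phosphomevalonate kinase, gave -0.23 ± 0.13 (adjusted p = 0.171), and FDPS, farnesyl diphosphate synthase, -0.23 ± 0.15 (adjusted p = 0.214). ACAT2, the cytosolic acetoacetyl-CoA thiolase, gave -0.07 ± 0.11 (adjusted p = 0.609), with a 95% interval -0.30 to 0.16. The 7 members had a median of -0.23 at 24 h. At 4 h, 0 of the 7 were called by limma, and 0 had an unadjusted p under 0.05. Of all genes, 5.29% were called higher at 4 h and 6.65% lower.

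Of the 10 later sterol members, which turn squalene into cholesterol, 5 fell and 2 rose at 24 h, with a median of -0.38. The shares were 50% lower, against 27.1% of all genes, and 20% higher, against 26.9%. MSMO1 and DHCR7 had fallen by 8 h, MSMO1 already at 4 h, and LSS, NSDHL and EBP were called only at 24 h among the comparisons with DMSO. MSMO1, the oxidase that removes methyl groups from the sterol ring, had signals of 10.88, 10.57 and 10.93 in the DMSO arrays, 10.11, 10.03 and 10.04 at 4 h, 9.96, 10.24 and 10.18 at 8 h and 9.93, 10.22 and 10.39 at 24 h. Each dasatinib array was below every DMSO array. MSMO1 fell by 0.73 ± 0.14 (adjusted p = 0.00411) at 4 h, by 0.67 (adjusted p = 0.00283) at 8 h and by 0.61 (adjusted p = 0.00231) at 24 h. Its second probe gave -0.68, -0.59 and -1.17 and another -0.12, 0.12 and 0.03, so the probes disagree.

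DHCR7, the reductase of the last step of one route to cholesterol, fell from 4 h to 8 h and again to 24 h. It had signals of 11.30, 11.31 and 11.32 in the DMSO arrays, 11.02, 10.99 and 11.06 at 4 h, 10.57, 10.42 and 10.67 at 8 h and 10.22, 10.26 and 10.26 at 24 h. No group overlapped another, and each later time lay below the one before. DHCR7 gave -0.29 ± 0.09 (adjusted p = 0.0553) at 4 h, called lower without background correction (adjusted p = 0.0148) and with the authors' deposited table (adjusted p = 0.00361). It fell by 0.76 ± 0.09 (adjusted p = 5.5e-05) at 8 h and fell by 1.06 ± 0.09 (adjusted p = 1.04e-06) at 24 h, and its other probe gave -0.26, -0.61 and -1.20. Between times, DHCR7 fell by 0.47 (adjusted p = 0.00586) from 4 h to 8 h and by 0.31 (adjusted p = 0.0173) from 8 h to 24 h, the last with an adjusted p of 0.0785 without the 8 h array C and 0.0545 without the 24 h array A.

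TM7SF2, a sterol reductase of the endoplasmic reticulum, moved the other way. Its signals were 8.41, 8.73 and 8.21 in the DMSO arrays, 8.35, 8.63 and 8.73 at 4 h, 9.48, 9.51 and 9.50 at 8 h and 10.09, 10.26 and 9.93 at 24 h. The 4 h arrays overlapped DMSO, the 8 h arrays were above both, and the 24 h arrays were above the 8 h arrays. TM7SF2 gave 0.12 ± 0.14 (adjusted p = 0.69) at 4 h, rose by 1.05 ± 0.14 (adjusted p = 0.000191) at 8 h and rose by 1.65 ± 0.14 (adjusted p = 1.66e-06) at 24 h. It rose by 0.93 (adjusted p = 0.00198) from 4 h to 8 h and by 0.60 (adjusted p = 0.00697) from 8 h to 24 h. LBR, the lamin B receptor, which carries the same reductase activity and is not a member, fell by 0.38 (adjusted p = 0.0161) at 24 h.

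EBP, the sterol isomerase, and LSS, which closes squalene epoxide into lanosterol, fell late. EBP had signals of 11.07, 11.07 and 10.80 in the DMSO arrays, 11.004, 10.85 and 11.20 at 4 h, 11.04, 11.24 and 11.14 at 8 h and 10.20, 10.22 and 10.63 at 24 h. All 3 of the 24 h arrays were below the other 9. EBP fell by 0.63 ± 0.14 (adjusted p = 0.00207) at 24 h, after a difference of 0.16 ± 0.14 (adjusted p = 0.427) at 8 h, and from 8 h to 24 h it fell by 0.79 (adjusted p = 0.00101). LSS had signals of 10.37, 10.50 and 10.75 in the DMSO arrays, 10.40, 10.42 and 10.48 at 4 h, 10.68, 10.51 and 10.60 at 8 h and 9.94, 9.98 and 10.16 at 24 h. The 24 h arrays of LSS were again the lowest 3. LSS fell by 0.51 ± 0.11 (adjusted p = 0.00198) at 24 h, but averaging its probes, of which 2 are dimmer and gave -0.21 and 0.03, left -0.23 (adjusted p = 0.159). The 2 dimmer probes had mean log2 signals of 5.46 and 5.50 and were detected on 9 and 10 of 12 arrays. The brightest had a mean of 10.40 and was detected on all 12.

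HSD17B7, a ketosteroid reductase of the demethylation steps, had signals of 11.50, 11.61 and 11.62 in the DMSO arrays, 11.32, 11.96 and 12.02 at 4 h, 11.52, 11.81 and 11.38 at 8 h and 11.93, 11.94 and 12.47 at 24 h. Arrays at 24 h were above DMSO, and those at 4 h spread over both. HSD17B7 rose by 0.54 ± 0.20 (adjusted p = 0.0353) at 24 h, a call that was lost without any 1 of the DMSO arrays (adjusted p of 0.092, 0.0665 and 0.0647 without A, B and C) or without the 24 h array C, which left 0.36 (adjusted p = 0.152). It was also lost with 75th-percentile scaling (adjusted p = 0.0515) and without the detection filter (adjusted p = 0.0663). NSDHL, a dehydrogenase of the same steps, fell by 0.43 ± 0.10 (adjusted p = 0.00271) at 24 h. The remaining 3 were not called against DMSO with the processing used here. CYP51A1, the lanosterol demethylase, gave -0.34 ± 0.15 (adjusted p = 0.0728) at 24 h, and was called lower at 8 h (-0.52, adjusted p = 0.00764) and 24 h (-0.53, adjusted p = 0.003) without DMSO array C, and at 24 h without background correction (-0.27, adjusted p = 0.0325). SC5D, a sterol desaturase, gave -0.27 ± 0.16 (adjusted p = 0.175) and was called lower without DMSO array B (-0.42, adjusted p = 0.0457). SQLE, squalene epoxidase, had 4 h arrays all below DMSO, and gave -0.30 ± 0.10 (adjusted p = 0.0896) at 4 h, -0.12 ± 0.10 (adjusted p = 0.419) at 8 h and -0.06 ± 0.10 (adjusted p = 0.68) at 24 h, the last with a 95% interval -0.28 to 0.17. At 4 h SQLE was called lower without background correction (adjusted p = 0.0262) and with the authors' deposited table (adjusted p = 0.0255). Its second probe, detected on all 12 arrays, gave -0.13, -0.19 and -0.18 at 4 h, 8 h and 24 h.

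**Figure D3:**
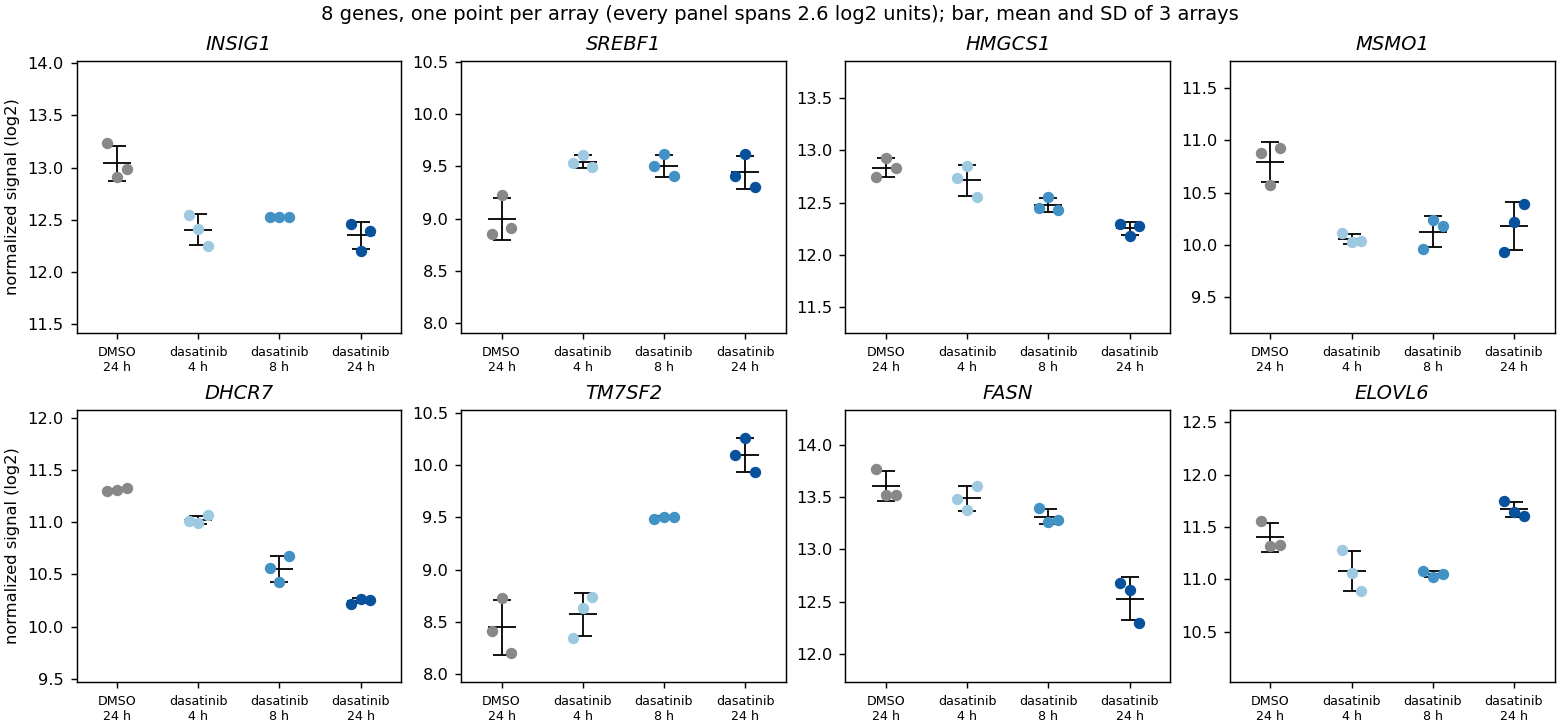
Normalized log2 signal of 8 members in each array (points) by group, with the mean and SD of 3 arrays (bars). In INSIG1 and MSMO1 every dasatinib array is below the DMSO arrays, in TM7SF2 the 24 h arrays reach 10.26 from a highest DMSO value of 8.73, and in FASN the 24 h arrays lie at or below 12.68.

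In fatty acid synthesis, 4 of 7 members fell at 24 h (57.1%, against 27.1% of all genes), and the median was -0.46. In limma 0 rose, against 26.9% of all genes, with 1 higher at an unadjusted p under 0.05. The 4 that fell were FASN, the fatty acid synthase, ACLY, which makes cytosolic acetyl-CoA from citrate, ME1, a malic enzyme that yields NADPH, and SCD, the desaturase that makes oleate. FASN had signals of 13.77, 13.52 and 13.52 in the DMSO arrays, 13.48, 13.37 and 13.61 at 4 h, 13.40, 13.26 and 13.28 at 8 h and 12.68, 12.61 and 12.29 at 24 h. The 8 h and 24 h arrays were below DMSO, those at 24 h by a clear gap, and the 4 h arrays overlapped it. FASN fell by 1.08 ± 0.12 (adjusted p = 1.28e-05) at 24 h, after differences of -0.12 ± 0.12 (adjusted p = 0.642) at 4 h and -0.29 ± 0.12 (adjusted p = 0.0897) at 8 h. The 8 h value was called lower without background correction (adjusted p = 0.029) and with the authors' deposited table (adjusted p = 0.0394). ME1 had signals of 10.25, 9.91 and 10.03 in the DMSO arrays, 10.21, 9.82 and 10.25 at 4 h, 10.01, 10.00 and 10.33 at 8 h and 9.29, 9.63 and 9.53 at 24 h. Only its 24 h arrays were below DMSO. ME1 fell by 0.58 ± 0.15 (adjusted p = 0.00602) at 24 h, and ACLY fell by 0.51 ± 0.11 (adjusted p = 0.0016), with a second ACLY probe at -0.79.

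SCD fell by 0.46 ± 0.10 (adjusted p = 0.00174) at 24 h. At 8 h it fell by 0.35 (adjusted p = 0.0186), a call lost without DMSO array A (adjusted p = 0.0746) or the 8 h array C (adjusted p = 0.0688) and with 75th-percentile scaling (-0.22, adjusted p = 0.131). ELOVL6, which lengthens palmitate, had signals of 11.56, 11.32 and 11.33 in the DMSO arrays, 11.28, 11.06 and 10.89 at 4 h, 11.08, 11.02 and 11.05 at 8 h and 11.75, 11.65 and 11.61 at 24 h. The 4 h and 8 h arrays were below DMSO and the 24 h arrays above it. ELOVL6 fell by 0.35 ± 0.11 (adjusted p = 0.0328) at 8 h, though this was lost without DMSO array A (adjusted p = 0.121) or any 1 of the 8 h arrays (adjusted p of 0.0648, 0.0858 and 0.0747 without A, B and C) and without the detection filter (adjusted p = 0.0527). At 24 h it gave 0.27 ± 0.11 (adjusted p = 0.066) against DMSO, called higher without DMSO array A (0.35, adjusted p = 0.0331), without background correction (adjusted p = 0.0225) and with the authors' deposited table (adjusted p = 0.0234). At 4 h it gave -0.32 ± 0.11 (adjusted p = 0.0917), called lower without the 4 h array A (-0.42, adjusted p = 0.0383), without background correction (adjusted p = 0.0285) and with the authors' table (adjusted p = 0.0364), and from 8 h to 24 h it rose by 0.62 (adjusted p = 0.00136). A second ELOVL6 probe, detected on all 12 arrays, gave -0.25, -0.40 and 0.09 against DMSO at 4 h, 8 h and 24 h. The higher value at 24 h thus rests on the brighter probe. ACACA, acetyl-CoA carboxylase, gave -0.37 ± 0.13 (adjusted p = 0.0545) at 8 h and -0.30 ± 0.13 (adjusted p = 0.0791) at 24 h, and with the mean of its probes was called lower at both times (adjusted p of 0.0252 and 0.0321). Without background correction ACACA was also called lower at both times (adjusted p of 0.0151 and 0.0293). The same held with 75th-percentile scaling (adjusted p of 0.047 and 0.0425) and with the authors' deposited table (adjusted p of 0.0285 and 0.0444). FADS1, a fatty acid desaturase, gave -0.14 ± 0.09 (adjusted p = 0.232) at 24 h with a 95% interval -0.35 to 0.07. At 4 h, limma called 0 of the 7 members, where 5.29% of all genes were called higher and 6.65% lower, and 1 had an unadjusted p under 0.05.

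Comparisons between the dasatinib groups take no mean from the DMSO arrays, which enter only through the spread estimated over all 12 arrays, and dose and serum are the same in both groups, while the hours in low serum differ with the hours of drug. From 4 h to 8 h, 2 of the 28 members fell, DHCR7 and CYP51A1, where 5.30% of all genes were called lower, and 1 rose, TM7SF2, where 5.98% were called higher. CYP51A1 fell by 0.54 ± 0.15 (adjusted p = 0.0372) between these times, a call lost without any 1 of the 8 h arrays or the 4 h arrays A or C (adjusted p from 0.0624 to 0.121). The call was also lost without the 24 h array A (adjusted p = 0.0507), without the detection filter (adjusted p = 0.065) and with a block by array letter (adjusted p = 0.0513). From 8 h to 24 h, 9 members fell, where 18.3% of all genes were called lower, and 3 rose, TM7SF2, HSD17B7 and ELOVL6, where 17.5% were called higher. The 9 were PMVK, IDI1, LSS, NSDHL, EBP, DHCR7, ACLY, ME1 and FASN, and FASN, with 0.79 (adjusted p = 0.000438), and EBP had the greatest falls. The LSS call was lost with the mean of its probes, which left -0.04 (adjusted p = 0.838). Besides DHCR7, given above, calls lost without 1 of the 8 h or 24 h arrays were those of PMVK (adjusted p of 0.0947, 0.0709 and 0.0736 without the 8 h array A and the 24 h arrays A and B), IDI1 (0.0658 and 0.0801 without the 8 h array A and the 24 h array A) and ACLY (0.0509 without the 24 h array C). From 4 h to 24 h, 10 members fell, against 22.6% of all genes, and 2 rose, TM7SF2 and ELOVL6, against 23.2%. HSD17B7 rose by 0.54 ± 0.20 (adjusted p = 0.049) from 8 h to 24 h, a call lost without any 1 of the 24 h arrays (adjusted p of 0.0509, 0.054 and 0.19 without A, B and C) and without the 8 h array C (adjusted p = 0.155) or A (adjusted p = 0.11). It was also lost without each DMSO array (adjusted p from 0.0611 to 0.0621) or the 4 h array B (adjusted p = 0.0516), with 75th-percentile scaling (adjusted p = 0.0895) and without the detection filter (adjusted p = 0.0908).

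Ordered by group mean, 18 of the 28 members were lowest in the 24 h dasatinib group, where 36.5% of all genes had their lowest mean. DMSO held the highest mean for 11 members, against 29.4% of all genes. The 8 h group was highest for 9 members, against 19.6% of all genes, among them EBP, ME1, LSS and NSDHL, all of which fell between 8 h and 24 h. For LSS this fall rests on its brightest probe. A fall after the group picked as highest follows in part from the choice. The 9 include SREBF2, which passed the filter only through the 8 h group. None of the 9 was called higher at 8 h than in DMSO, and for NSDHL the means were 11.132 at 8 h and 11.130 in DMSO. Those highest at 24 h were MVD, TM7SF2, HSD17B7 and ELOVL6, 4 of 28, against 35.8% of all genes.

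Further lists place these values among other lipid genes at 24 h. They were chosen with earlier results of these data known, and their shares describe the lists and were given no test. Of 12 measured genes of SREBP processing and other sterol steps, limma called 4 lower (33.3%), near the 27.1% of all genes, and 0 higher, against 26.9%, and 0 were higher at an unadjusted p under 0.05. UBE2G2, a ubiquitin-conjugating enzyme of protein degradation at the endoplasmic reticulum, fell by 0.97 ± 0.11 (adjusted p = 1.33e-05). RDH11, a retinol dehydrogenase, fell by 0.52 (adjusted p = 0.00316), and LBR is given above. SPRING1, a regulator of SREBP processing, was at least 1.38-fold lower (adjusted p = 0.0276), a bound because it was not detected on the 24 h arrays. It passed the filter through other groups alone, so a lower value at 24 h follows in part from the choice. Of 14 genes of the isoprenoid branch, 8 fell (57.1%, against 27.1% of all genes) and 1 rose (7.14%, against 26.9%), the latter lost without DMSO array C or the 24 h arrays A or B. PDSS1 and PDSS2, which make the coenzyme Q tail, fell by 0.99 (adjusted p = 1.28e-05) and 0.66 (adjusted p = 0.000809). DOLK, dolichol kinase, fell by 0.74 (adjusted p = 0.000483), and RABGGTB, a subunit that attaches geranylgeranyl groups to Rab proteins, by 0.60 (adjusted p = 0.000336). The medians of the 2 lists were -0.23 and -0.38.

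Genes of sterol export, esterification and the LXR receptors included 5 of 10 called higher at 24 h (50%, against 26.9% of all genes) and 0 lower, with 1 lower at an unadjusted p under 0.05, 1 called lower without background correction or in the authors' deposited values, and a median of 0.30. RXRA, the nuclear receptor that pairs with LXR, rose by 0.46 ± 0.10 (adjusted p = 0.00825) at 4 h, by 1.38 (adjusted p = 1.04e-06) at 8 h and by 1.93 (adjusted p = 1.49e-08) at 24 h. NPC2, which carries cholesterol out of lysosomes, rose by 0.63 (adjusted p = 0.000254). NR1H3, one of the LXR receptors, rose by 0.62 (adjusted p = 0.000689) and OSBPL2, of the oxysterol-binding family, by 0.52 (adjusted p = 0.000498). Of 18 measured genes of fatty acid oxidation, 10 rose (55.6%, against 26.9% of all genes) and 0 fell, with 1 lower at an unadjusted p under 0.05 and 1 called lower without background correction, and the median was 0.45. They included the mitochondrial thiolase ACAA2, up by 0.98 (adjusted p = 0.000277), the short-chain dehydrogenase ACADS, up by 0.79 (adjusted p = 0.00335), the electron transfer subunit ETFB, up by 0.77 (adjusted p = 0.00031), and CPT2, which takes fatty acyl groups into mitochondrial oxidation, up by 0.71 (adjusted p = 4.64e-05).

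Other genes of fatty acid and glycerolipid synthesis went both ways, 8 of 23 higher and 8 lower, or 34.8% each way against 26.9% and 27.1% of all genes, with a median of 0.08. MLXIPL, the carbohydrate-responsive factor ChREBP, gave 0.37 ± 0.21 (adjusted p = 0.303) at 4 h and then rose by 1.96 ± 0.21 (adjusted p = 2.48e-05) at 8 h and rose by 2.46 ± 0.21 (adjusted p = 1.08e-06) at 24 h. ACACB, the carboxylase at the mitochondrial surface, was not detected on the DMSO arrays and was at least 1.80-fold higher at 24 h (adjusted p = 4.11e-05). It passed the filter through dasatinib arrays alone, so a higher value there follows in part from the choice. LPIN1, a phosphatidate phosphatase, fell by 0.97 (adjusted p = 4.32e-06) and HACD2, a dehydratase of fatty acid elongation, by 0.83 (adjusted p = 4.81e-05). At 4 h, before most of these differences, limma called 0 of the oxidation genes and 0 of the isoprenoid genes, with 2 and 1 higher at an unadjusted p under 0.05. Few genes of any kind were called then, 5.29% of all genes higher and 6.65% lower. At an unadjusted p under 0.05 in limma, 1223 of all 10208 genes were higher at 4 h.

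**Figure D4:**
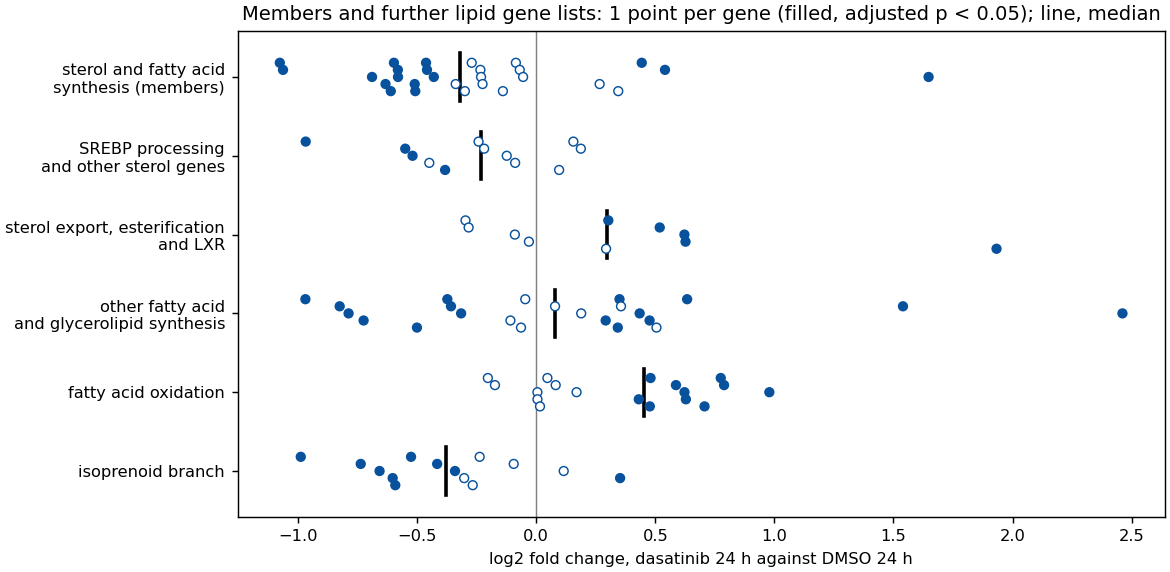
Log2 fold change at 24 h of dasatinib against DMSO (horizontal axis) for each gene of the members and 5 further lists, with filled points where the adjusted p was under 0.05 and a line at the median of each list. The members' median is -0.32, that of fatty acid oxidation 0.45 and that of the isoprenoid branch -0.38.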

How the data were processed

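Expression was measured on 12 Illumina BeadChips, 3 for each of 4 groups taken from the labels. The deposited probe signals are intensity values without background subtraction or normalization, each with a detection p-value, per the file headers. The authors also deposited a value table of log2-like values, with a median of 7.84 in each column, made by a method not given in the sources, and it served as an alternative. The letters A, B and C in the signal headers name the arrays here and were not tied to replicate numbers, and BMS in the headers was read as dasatinib.

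Signals were background-corrected, offset by 16, quantile-normalized and taken to log2 with neqc of limma 3.58.1 in R 4.3.3. The offset narrows the differences of dim probes. Of 47314 probes, 30108 name 1 gene in the platform annotation, 8 several and 17198 none. A probe was kept if, in 1 group or more, each of the 3 arrays gave a detection p under 0.05 (17625 probes, 13397 with 1 gene). The probe with the highest mean represented each of the 2604 genes with several, leaving 10208 genes. A mean per group was fitted with limma to all 12 arrays (8 residual and 4.08 prior degrees of freedom), with two-sided moderated p-values adjusted by Benjamini-Hochberg over all genes in each of 6 comparisons, and errors are standard errors. A gene undetected on all 3 arrays of a group is given as a bound, the bright group's mean against the higher of the dim probe's own signal and the lowest detected signal. The fitting was tested on simulated data. The number of arrays limits the precision.

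The members and lists were chosen with earlier results of these data known. All members passing the filter are named, with values per array for the 12 that differed most from DMSO and for SREBF1, SREBF2, SCAP and INSIG1, and values per array of ELOVL6 were added after its values were seen. From each further list, the 4 called genes that differed most at 24 h are named. Alternatives were the background correction, the scaling, the filter, the choice of probe, the authors' table, a block by array and leaving out each array. A few genes of the pathway are not reported here.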

Additional observations from a re-analysis of the deposited data

Results flagged for a closer look

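For 12 members, the difference from DMSO at 24 h was unlike that at 4 h by a test of the difference itself, which, as both share the DMSO arrays, is the direct comparison of 24 h with 4 h in limma. The 24 h value was lower for 10 of them. FASN was lower by a log2 difference of -0.96 (adjusted p = 4.9e-05), DHCR7 by -0.78 (adjusted p = 2.1e-05), EBP by -0.67 (adjusted p = 0.00181) and IDI1 by -0.63 (adjusted p = 0.00125). The other 6 were ME1 with -0.61, CYP51A1 with -0.55, ACLY with -0.54, HMGCS1 with -0.46, LSS with -0.41 and NSDHL with -0.39. TM7SF2 and ELOVL6 were higher at 24 h than at 4 h, by 1.53 (adjusted p = 5.2e-06) and 0.59 (adjusted p = 0.00111). For ELOVL6 the value against DMSO was -0.32 at 4 h and 0.27 at 24 h. Neither was called, but both were, in opposite directions, without background correction (adjusted p of 0.0285 and 0.0225) and with the authors' deposited table (adjusted p of 0.0364 and 0.0234). These values are from the brighter ELOVL6 probe, and its second probe gave -0.25 at 4 h and 0.09 at 24 h. With 3 arrays a group, no group was large enough to look for single arrays that stand apart.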

How the results depend on the processing

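The counts of members called were 1 higher and 2 lower at 4 h, 2 and 6 at 8 h, and 3 and 13 at 24 h. The 2 lower at 4 h became 5 without background correction, 6 with the authors' table and 7 with a replicate block by number on that table, which was chosen after seeing the data. The 3 higher at 24 h became 5 both without background correction and with the authors' table, the 13 lower became 16 and 15, and the 6 lower at 8 h became 9 under both. From 4 h to 8 h, the 1 higher became 2 with that replicate block on the authors' table, and the 2 lower became 1 without the detection filter and 1 with a replicate block by array letter. Scaling to the 75th percentile gave 3 higher and 5 lower at 8 h, and moved the median of all genes by 0.12 at 24 h. Leaving out 1 array at a time gave 1 to 1 higher and 2 to 3 lower at 4 h, 2 to 2 and 3 to 7 at 8 h, 2 to 4 and 12 to 15 at 24 h, 1 to 1 and 1 to 2 from 4 h to 8 h, 2 to 3 and 6 to 10 from 8 h to 24 h, and 2 to 3 and 10 to 11 from 4 h to 24 h. The count of 3 lower at 8 h was without the 8 h array C. LSS turned from -0.41 to 0.020 (adjusted p = 0.92) between 4 h and 24 h with the mean of its probes, and the cause was not tested. The 4 h calls of SREBF1, INSIG1 and MSMO1 were kept under every alternative run. Correlations of same-letter deviations were 0.03 to 0.19 for A, -0.08 to 0.05 for B and -0.01 to 0.12 for C, so the letters were not taken as pairs, and the letter block changed 3 of 168 member results. A slide block was not run because the files used here give no slide positions. Dim probes such as that of SREBF2 limit what could be detected.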
